A study of Mus musculus with 6 samples.

Results

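Collagen genes and the enzymes that finish collagen were followed in mouse mammary tumour cultures given a precursor of the microRNA miR-16. Membership goes by gene name. The set holds every probe of the array annotated to a collagen chain (symbols that begin with Col, a chain type and a chain letter), to a lysyl oxidase (Lox, Loxl), to a catalytic subunit of the collagen prolyl hydroxylase (P4ha), to a lysyl hydroxylase (Plod) or to the collagen chaperone gene Serpinh1. That gave 53 genes with 99 probes, of 27670 gene names and 41174 probes on the array. One of the 53, listed under an old name as Col4a3bp and now called Cert1, encodes a ceramide transfer protein and no collagen. It was counted with the set because the rule takes it, and it was given no class.

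C4HD is a ductal mammary tumour that arose in BALB/c mice under the progestin medroxyprogesterone acetate (MPA) and is passed on by transplantation into animals that carry a 40 mg MPA depot. Both groups were therefore tumour cells from female BALB/c mice under MPA, grown as primary cultures of the fraction that sedimented repeatedly, a step meant to leave the fibroblasts behind. One group received 30 nM pre-miR-16 and the other 30 nM pre-miR-Control, a scrambled precursor, both carried in by siPORT NeoFX for 48 h. Each group had 3 replicates described as biological, with 1 single-colour Agilent array each; the labels do not say whether the replicates came from different tumours, nor the age of the mice. The mature strand that mouse miR-16 yields is shown here because it is the agent that sets the groups apart. Its sequence is from RefSeq (GRCm38.p6), and capitals mark the seed, bases 2 to 8 from the 5′ end.
mmu-miR-16-5p: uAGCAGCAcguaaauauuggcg

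A collagen is built from chains with a glycine in each triplet of residues, which wind around each other in trimers. In the endoplasmic reticulum prolyl and lysyl hydroxylases modify the chains and Serpinh1 binds the folded helix. Outside the cell the end pieces are cut off, and lysyl oxidases start the cross-links that make fibrils and networks stiff. Fibrillar collagens form the cables of connective tissue, type IV collagen forms the sheet of basement membranes, and fibril-associated collagens with interrupted helices (FACITs) decorate fibrils. In mammary tumours most fibrillar collagen is known to come from stromal fibroblasts, while epithelial cells contribute to the basement membrane.

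Levels are log2 signals relative to the 75th percentile of the same array, so that 0 means a signal equal to that percentile. A change is the log2 fold change of pre-miR-16 over pre-miR-Control, ± its SE, with limma's Benjamini-Hochberg adjusted p over 16182 genes, and "rose", "fell" and "called" mean an adjusted p under 0.05. That percentile lay between 626 and 911 signal units on the 6 arrays, well above background were 57.2% to 64% of spots, and saturated were 0. Replicate 1 of each group shared slide 1. On slide 2 were the remaining controls, replicates 2 and 3, beside replicate 2 of pre-miR-16, while replicate 3 of pre-miR-16 was alone on slide 3. In the deposited value table, columns 1 and 2 of pre-miR-16 correlated better with each other's scan (Spearman 0.965 and 0.970) than with their own (0.946 and 0.943), which leaves the groups as they are. The 8 spike-in probes read 3.80 to 3.95 above the percentile on control arrays and 3.28 to 3.64 on pre-miR-16 arrays. Scaling on them moved every change up by 0.383, so that small falls depend on the scaling.

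Most of the collagen machinery was more abundant in the pre-miR-16 cultures. Of the 53 genes, 42 had a probe that was well above background throughout at least 1 group and were tested. Of these 31 rose, 5 fell and 6 were not called. Over all genes tested, 16.1% rose and 33% fell, and the median change was -0.196, against 1.49 for the 42. The array values of the groups did not overlap for 37 of the 42, against 61.4% of all genes. Scaled on the spike-ins, 32 rose and 0 fell, beside 22.2% and 6.12% of all genes (3590 and 991 genes, compared with 2613 and 5333 by the percentile). A filter that keeps genes bright in either group favours differences, so the 37 genes above background on all 6 arrays were also counted: 27 rose and 5 fell, against 13.2% and 33.7% of all such genes. Without any filter on dim probes, 29 of 53 rose and 3 fell, against 8.33% and 13.9%. In RNA from a whole culture, more cells of a collagen-making type and more collagen RNA per cell cannot be told apart.

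The classes differed in how evenly they moved. Among fibrillar collagens 8 of 9 tested rose and 1 fell, with a median change of 4.16. Among basement membrane chains 2 of 5 rose, 1 fell and 2 were not called (median 0.04). Among FACITs 4 of 7 rose and 3 fell (median 0.42). In the mixed class of other collagens 7 of 9 rose, 0 fell and 2 were not called (median 0.80). Among enzymes and the chaperone 10 of 11 rose, 0 fell and 1 was not called (median 1.38).

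**Figure D1:**
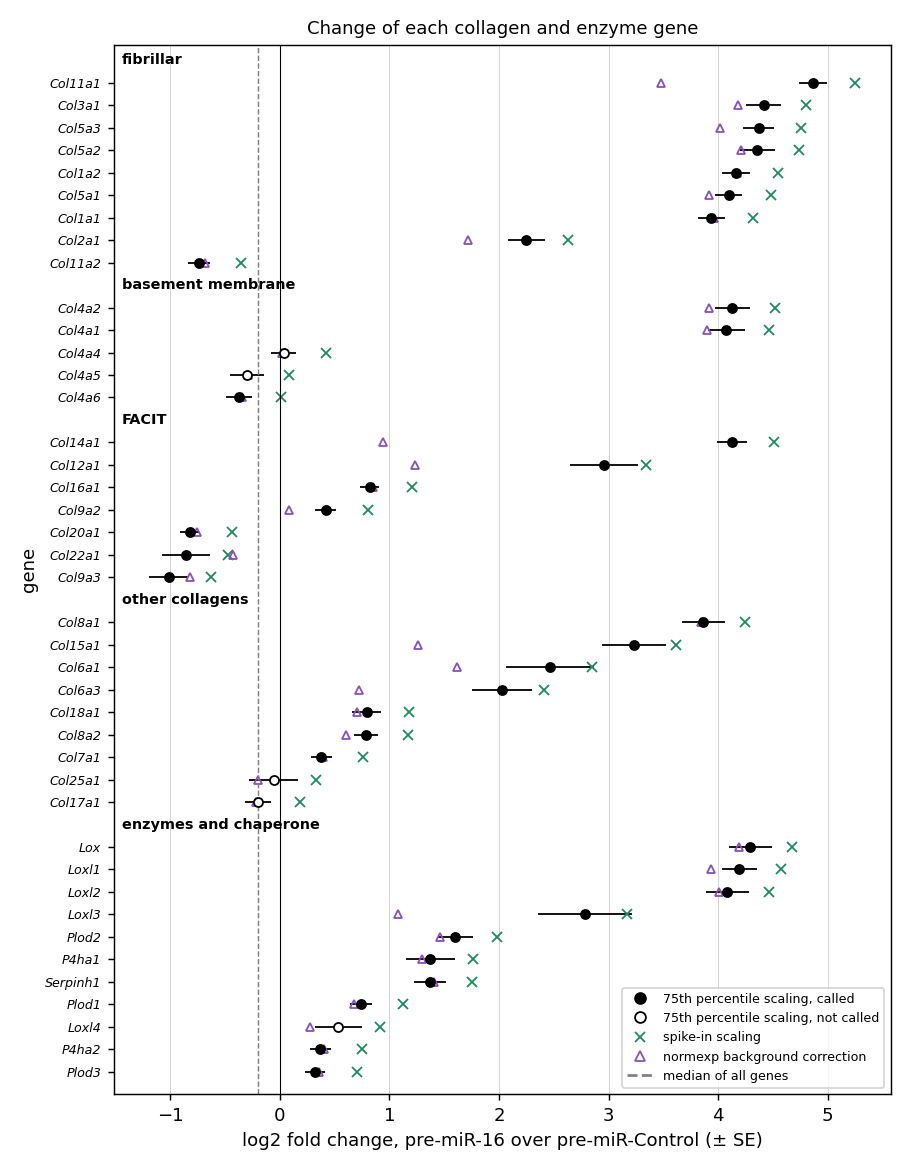
Log2 fold change of each of the 41 tested collagen and enzyme genes, pre-miR-16 over pre-miR-Control, by class, with horizontal bars for the SE. Filled circles were called and open circles were not, crosses and triangles give the change under spike-in scaling and normexp background correction, and the dashed line is the median of all genes (-0.196). Fibrillar genes cluster near 4, while FACITs lie on both sides of 0.

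Type I collagen, the main cable of connective tissue, is a trimer of Col1a1 and Col1a2 chains. Col1a1 read 2.59, 2.57 and 2.60 on pre-miR-Control replicates 1 to 3 and 6.58, 6.70 and 6.29 on pre-miR-16 replicates 1 to 3 (probe at chr11:95060800-95060859, mm7). Col1a2 read 2.91, 2.70 and 2.81 on the controls and 6.90, 7.18 and 6.81 on the pre-miR-16 arrays (chr6:4493505-4493564). Every pre-miR-16 array lay above every control array for both genes. The changes were 3.94 ± 0.12 for Col1a1 (15.3-fold) and 4.16 ± 0.13 for Col1a2 (17.9-fold), each with an adjusted p of 1.17e-05.

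Type V and type XI chains, which help to start fibrils and set their width, rose as much, with 1 exception. Col5a1 read -0.51, -0.76 and -0.51 on the controls and 3.44, 3.68 and 3.39 on the pre-miR-16 arrays, a change of 4.10 ± 0.12 (17.1-fold, adjusted p = 1.17e-05). Col5a3 read -1.50, -1.63 and -1.50 on the controls and 2.59, 3.09 and 2.81 on the pre-miR-16 arrays, a change of 4.37 ± 0.14 (20.7-fold, adjusted p = 1.17e-05). The groups were far apart for both chains, and Col5a2, their usual partner, changed by 4.36 ± 0.16. Col11a1, a type XI chain of cartilage that is also known from activated stroma, read -3.88, -4.31 and -4.11 on the controls and 0.77, 0.79 and 0.74 on the pre-miR-16 arrays. Its change of 4.87 ± 0.13 (29.2-fold, adjusted p = 1.17e-05) was the largest of the 42 genes under the percentile scaling, and 3.48 when background was corrected by normexp with an offset of 50, which shrinks changes of dim probes. Col3a1, which encodes the type III collagen of extensible tissues, rose by 4.42 ± 0.16.

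The exception was Col11a2, the partner of Col11a1 in cartilage fibrils. Col11a2 read 1.45, 1.61 and 1.43 on the controls and 0.79, 0.65 and 0.84 on the pre-miR-16 arrays (chr17:32145178-32145237). The groups did not overlap, and the pre-miR-16 arrays were the lower ones. The change was -0.74 ± 0.10 (adjusted p = 0.00203), and under spike-in scaling it was -0.35 and not called (adjusted p = 0.196).

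**Figure D2:**
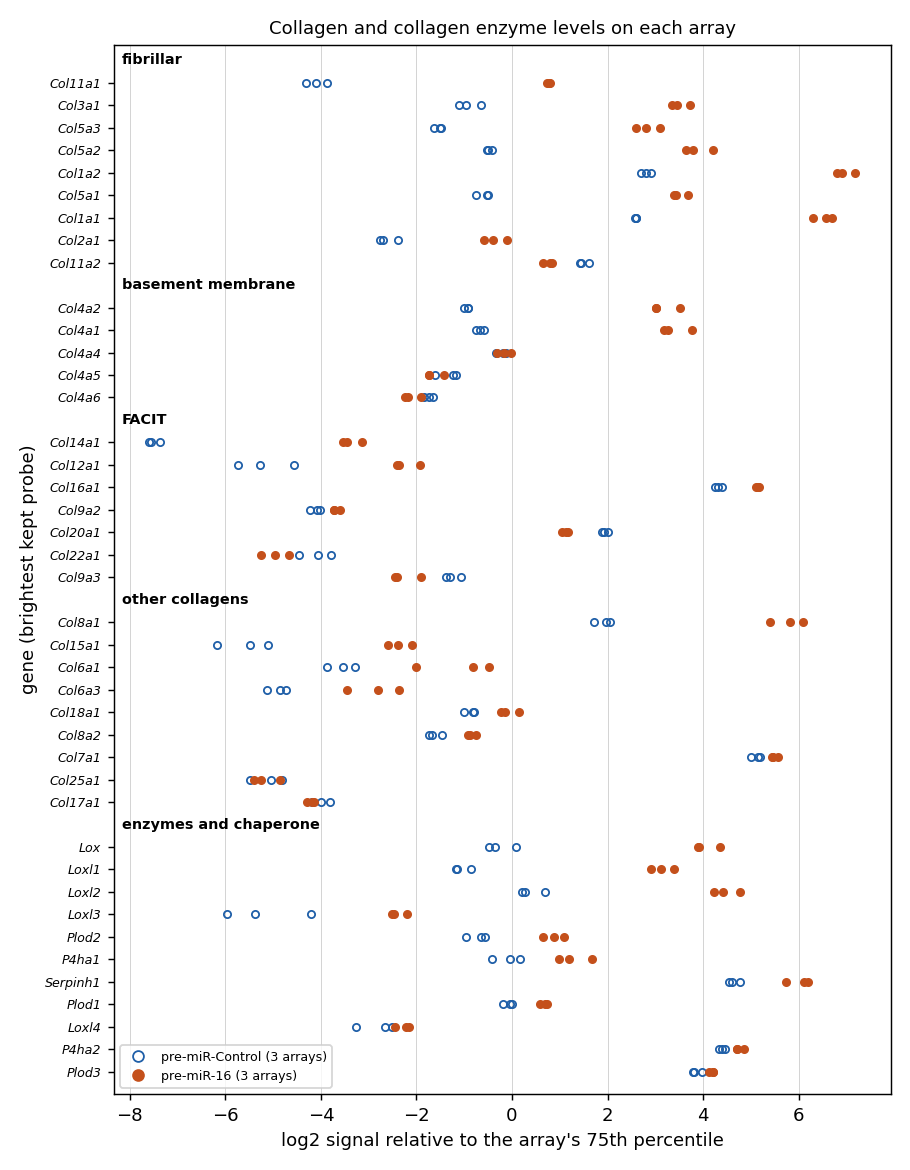
Level of each tested collagen and enzyme gene on each of the 6 arrays, as log2 signal relative to the array's 75th percentile (horizontal axis), by class. Open circles are the 3 pre-miR-Control arrays and filled circles the 3 pre-miR-16 arrays; for Col1a1 they lie at 2.57 to 2.60 and 6.29 to 6.70, and levels of different genes are read by different probes and are not comparable.

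Col2a1, the type II collagen of cartilage, gave opposite answers at overlapping probes, and it is described here because of that, after its values were seen. The probe used for the gene is printed on 10 spots per array and lies at chr15:97979237-97979296 on the minus strand. A second probe, on 1 spot, lies 20 bases upstream in the transcript at chr15:97979257-97979316, and the probes share 40 of their 60 bases. Both sequences hold a reading frame without a stop, and capitals mark the bases that are common to them.
Col2a1 upstream probe: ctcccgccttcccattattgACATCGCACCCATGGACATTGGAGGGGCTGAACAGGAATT
Col2a1 downstream probe: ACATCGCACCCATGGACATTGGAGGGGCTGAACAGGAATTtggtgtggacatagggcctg
At the downstream probe Col2a1 read -2.38, -2.76 and -2.70 on the controls and -0.59, -0.10 and -0.41 on the pre-miR-16 arrays. At the upstream probe Col2a1 read -1.31, -1.48 and -1.43 on the controls and -2.11, -1.76 and -1.96 on the pre-miR-16 arrays. The groups did not overlap at either probe, but their order was reversed. The change of Col2a1 was 2.25 ± 0.17 at the downstream probe (adjusted p = 0.000189) and -0.54 ± 0.12 at the upstream one (adjusted p = 0.0132, adjusted over all 23827 kept probes). Which probe was brighter depended on the arrays in the fit: without any one of the pre-miR-16 arrays the upstream probe stood for Col2a1 and the change was -0.63 to -0.45. The direction of Col2a1 is thus not settled by these probes, and without it 7 of 8 fibrillar genes rose.

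The repeat that defines a collagen helix can be read in the probes themselves. Of 41174 probe sequences, 3 keep a frame without stop in which GGN, the codon for glycine, recurs in each run of 3 codons, and all 3 belong to the set: Col11a2, Col5a1 and Col5a3. They are shown because they report on the helix-coding middle of the transcript, whereas the tested probe of each gene lies nearer to the 3′ end. Their genome positions in mm7 span more than the probe's length and so cross introns: chr17:32131401-32131567 for Col11a2, chr2:27994034-27996457 for Col5a1 and chr9:20655471-20656200, on the minus strand, for Col5a3. Capitals mark the GGN codons.
Col11a2: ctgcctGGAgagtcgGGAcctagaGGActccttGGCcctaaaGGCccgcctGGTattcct
Col5a1: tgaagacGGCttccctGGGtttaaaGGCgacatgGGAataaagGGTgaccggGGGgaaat
Col5a3: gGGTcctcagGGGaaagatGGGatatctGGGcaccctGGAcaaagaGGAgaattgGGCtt
All 3 helix probes gave smaller changes than the probe nearer the 3′ end. For Col5a1 the helix probe changed by 1.77 ± 0.39 (adjusted p = 0.0124), against 4.10 at the other probe. The Col5a3 helix probe changed by 1.14 ± 0.57 and was not called (adjusted p = 0.147), against 4.37. At Col11a2 the helix probe changed by -0.39 ± 0.19 and was not called either (adjusted p = 0.143), against -0.74. The Col5a1 helix probe was well above background on 2 of 3 control arrays and the Col5a3 helix probe on 1 of 3, so that their changes rest on dim control signals.

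Other genes with several kept probes were more even. Of the 15 collagen and enzyme genes with more than 1 kept probe, 14 had the same sign at all of them, Col2a1 being the exception. The 3 probes of Col1a1 changed by 3.94 to 4.52, those of Col4a1 by 4.08 and 4.37, and those of Col4a2 by 4.13 and 4.07. A Col3a1 probe 27228 bases of genome upstream of the tested one changed by 2.65 ± 0.55, and 0 of 3 control arrays were well above background there. In 20 of 26 genes with several probes, 1 or more of them kept, the brightest probe was the one nearest the 3′ end.

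**Figure D3:**
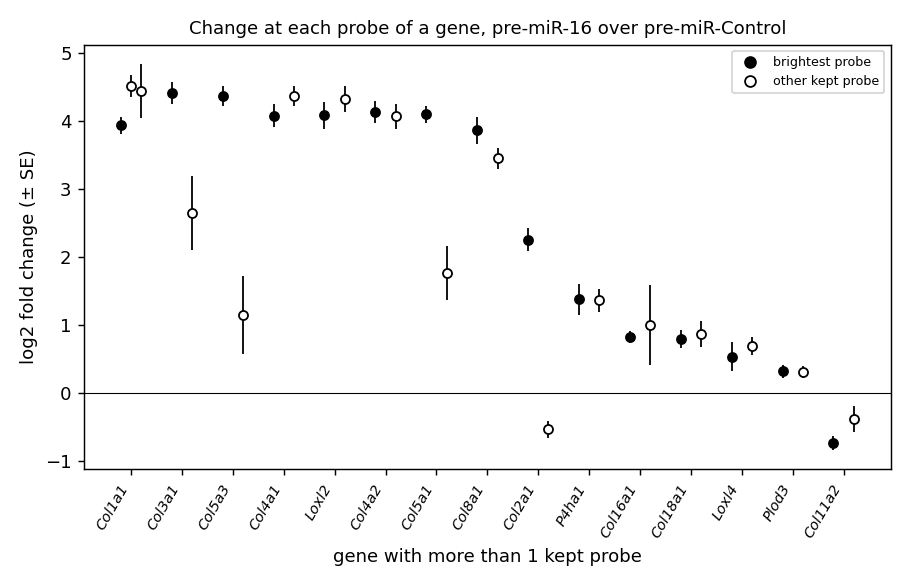
Log2 fold change at each kept probe (vertical axis, bars are the SE) of the 15 collagen and enzyme genes with more than 1 kept probe. Filled circles are the brightest probe, which stands for the gene, and open circles the others; the Col2a1 probes lie on opposite sides of 0, at 2.25 and -0.54.

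In the basement membrane class, the ubiquitous pair Col4a1 and Col4a2 rose and the tissue-restricted chains did not. The genes of this pair lie next to each other on chromosome 8 on opposite strands, and their chains form the common type IV network. Col4a2 read -0.91, -1.01 and -0.93 on the controls and 3.01, 3.52 and 3.02 on the pre-miR-16 arrays (chr8:11416851-11416910). Col4a1 read -0.67, -0.76 and -0.59 on the controls and 3.26, 3.76 and 3.18 on the pre-miR-16 arrays (chr8:11167020-11167079). The 3 pre-miR-16 arrays were the high ones for both genes, replicate 2 highest. The changes were 4.13 ± 0.16 for Col4a2 (17.5-fold, adjusted p = 1.48e-05) and 4.08 ± 0.17 for Col4a1 (16.9-fold, adjusted p = 1.77e-05).

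Col4a6, whose chain joins Col4a5 in the basement membranes of smooth muscle and some epithelia, was slightly lower. It read -1.84, -1.65 and -1.74 on the controls and -2.25, -2.17 and -1.91 on the pre-miR-16 arrays. The groups did not overlap, but the change of -0.37 ± 0.12 only just passed the test (adjusted p = 0.0450). Under spike-in scaling it turned to 0.01, and leaving out any 1 array other than pre-miR-16 replicate 3 ended the call (-0.42 to -0.30). The Col4a6 call held in 11 of 23 alternatives. Col4a5 read -1.16, -1.24 and -1.61 on the controls and -1.75, -1.43 and -1.73 on the pre-miR-16 arrays (change -0.30 ± 0.16, adjusted p = 0.163). Col4a4, a chain of the kidney filter, read -0.12, -0.18 and -0.33 on the controls and -0.16, -0.03 and -0.32 on the pre-miR-16 arrays (change 0.04 ± 0.11, adjusted p = 0.804). For Col4a5 and Col4a4 the arrays of the groups overlapped.

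FACITs moved in both directions. Col14a1, whose product sits on type I fibrils, was well above background on 0 of 3 control arrays, where it read -7.59, -7.37 and -7.55, and it read -3.45, -3.54 and -3.14 on the pre-miR-16 arrays. It was at least 3.88-fold higher, a bound that takes for each control array the lowest signal among probes well above background, or the probe's own where that is higher. The bound itself was not tested. The adjusted p of 1.17e-05 belongs to the fitted change of 4.13 ± 0.135, which uses the control readings as they are. The bound holds for the processed signal only, as the Col14a1 change was 0.94 under normexp. Col12a1, another coat of type I fibrils, read -4.56, -5.73 and -5.27 on the controls, 2 of 3 well above background, and -2.37, -1.92 and -2.41 on the pre-miR-16 arrays. The groups were apart, with a change of 2.96 ± 0.31 (adjusted p = 0.000773) that was 1.24 under normexp, 2.19 within slide 1 and 3.58 within slide 2. Col16a1, a minor fibril-associated collagen, read 4.25, 4.31 and 4.41 on the controls and 5.10, 5.17 and 5.16 on the pre-miR-16 arrays, a change of 0.82 ± 0.09 (adjusted p = 0.000800).

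The FACITs that fell were Col9a3, Col22a1 and Col20a1, and 0 of them were called under spike-in scaling. Col9a3, a chain of the type IX collagen of cartilage fibrils, read -1.38, -1.06 and -1.29 on the controls and -2.46, -1.90 and -2.41 on the pre-miR-16 arrays, a change of -1.01 ± 0.18 (adjusted p = 0.00522; spike-in scaling -0.63). Col20a1 read 1.88, 2.01 and 1.93 on the controls and 1.06, 1.14 and 1.17 on the pre-miR-16 arrays, a change of -0.82 ± 0.09 (adjusted p = 0.000795; spike-in scaling -0.44). For both genes each pre-miR-16 array was below each control array. Col22a1, a collagen of tissue junctions, read -4.07, -3.80 and -4.47 on the controls and -5.26, -4.96 and -4.67 on the pre-miR-16 arrays, a change of -0.85 ± 0.22 (adjusted p = 0.0207; spike-in scaling -0.47). Under normexp the Col22a1 change was -0.43. A second Col22a1 probe that was not kept went the other way, with means of -5.345 on the controls and -4.22 on the pre-miR-16 arrays. The fall of Col22a1 thus rests on 1 dim probe. The Col22a1 call was lost in 9 of 23 alternatives, among them without pre-miR-Control replicate 1 (-0.83) or 2 (-0.70) or pre-miR-16 replicate 1 (-0.70). Col9a2, the partner of Col9a3, changed the other way by 0.42 ± 0.10 (adjusted p = 0.0136), a call that ended in 8 of 23 alternatives. Among them were normexp (0.09), slide as a block (0.44) and the fits without pre-miR-Control replicate 2 (0.43) or 3 (0.36). With only the genes above background on all 6 arrays in the fit, 2 FACITs rose.

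Among the other collagens, Col8a1 moved most. Its product, a short-chain collagen of vessel walls and corneal basement membrane, forms trimers with itself or with the Col8a2 chain. Col8a1 read 2.05, 1.96 and 1.71 on the controls and 5.81, 6.09 and 5.40 on the pre-miR-16 arrays, a change of 3.86 ± 0.20 (14.6-fold, adjusted p = 3.62e-05). Col8a2 read -1.46, -1.68 and -1.74 on the controls and -0.91, -0.75 and -0.87 on the pre-miR-16 arrays, a change of 0.78 ± 0.11 (adjusted p = 0.00222). The groups did not overlap for either gene.

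Of the type VI chains, which form beaded filaments around cells, Col6a1 and Col6a3 rose with a wide spread, and Col6a2 was too dim to be tested. Col6a1 read -3.53, -3.29 and -3.88 on the controls and -0.81, -2.0 and -0.49 on the pre-miR-16 arrays, replicate 2 being the low one. Its change was 2.47 ± 0.40 (adjusted p = 0.00387), 2.72 within slide 1 and 1.58 within slide 2, and 1.62 under normexp. Col6a3 read -5.13, -4.86 and -4.74 on the controls and -2.81, -2.38 and -3.45 on the pre-miR-16 arrays, a change of 2.03 ± 0.28 (adjusted p = 0.00205) that was 0.73 under normexp. Here replicate 2 was the high one, so that Col6a1 and Col6a3 did not follow each other across the pre-miR-16 arrays.

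Col15a1, a collagen of the basement membrane zone, read -5.11, -5.48 and -6.18 on the controls, 1 of 3 well above background, and -2.38, -2.09 and -2.60 on the pre-miR-16 arrays. The change was 3.23 ± 0.29 (adjusted p = 0.000410) and 1.26 under normexp. A second Col15a1 probe, 170 bases nearer the 3′ end, was well above background on 1 control array and on 0 pre-miR-16 arrays. There Col15a1 read -4.97, -7.485 and -7.62 on the controls and -7.38, -7.49 and -6.70 on the pre-miR-16 arrays. The rise of Col15a1 thus rests on the tested probe alone. Its relative Col18a1, the source of endostatin, rose by 0.80 ± 0.13 and Col7a1, the anchoring fibril collagen, by 0.38 ± 0.09. The Col7a1 call ended in 7 of 23 alternatives, among them without pre-miR-Control replicate 1 (0.32) or 3 (0.40). Col17a1, a membrane collagen of hemidesmosomes, read -3.82, -4.01 and -4.19 on the controls and -4.28, -4.14 and -4.18 on the pre-miR-16 arrays (change -0.20 ± 0.12, adjusted p = 0.216). Col25a1, a membrane collagen of neurons, read -5.05, -5.49 and -4.81 on the controls and -5.40, -5.26 and -4.86 on the pre-miR-16 arrays (change -0.06 ± 0.22, adjusted p = 0.850). The groups overlapped for Col17a1 and Col25a1.

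Lysyl oxidases rose with the fibrillar collagens that they cross-link: 4 of 5 were called, with a median change of 4.08. Loxl1 read -0.87, -1.14 and -1.17 on the controls and 3.11, 3.39 and 2.90 on the pre-miR-16 arrays, a change of 4.19 ± 0.16 (18.3-fold, adjusted p = 1.42e-05). Lox, the founding member, read -0.35, -0.47 and 0.09 on the controls and 3.89, 4.36 and 3.91 on the pre-miR-16 arrays, a change of 4.29 ± 0.20 (19.6-fold, adjusted p = 2.58e-05). Loxl2 read 0.70, 0.20 and 0.28 on the controls and 4.41, 4.78 and 4.23 on the pre-miR-16 arrays, a change of 4.08 ± 0.20 (17.0-fold, adjusted p = 2.89e-05). In these genes the lowest pre-miR-16 array exceeded the highest control array by a wide margin. Loxl3 changed by 2.79 ± 0.43 from control signals of which 1 of 3 was well above background, and by 1.08 under normexp. Loxl4 read -2.51, -3.27 and -2.65 on the controls and -2.22, -2.45 and -2.16 on the pre-miR-16 arrays and was not called (0.53 ± 0.21, adjusted p = 0.0831), although the arrays did not overlap. Its other kept probe, dimmer but well above background on every array, changed by 0.69 ± 0.13 and did pass (adjusted p = 0.00769, adjusted over all 23827 kept probes). A call of the Loxl4 gene appeared in 4 of 23 alternatives, among them with the mean of its probes (0.61), under spike-in scaling (0.92) and with array weights (0.76).

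The enzymes that act on the chains before they are secreted rose less. Plod2, the lysyl hydroxylase of the chain ends that take part in cross-links, read -0.56, -0.65 and -0.97 on the controls and 0.89, 1.09 and 0.65 on the pre-miR-16 arrays, a change of 1.60 ± 0.16 (3.04-fold, adjusted p = 0.000667). Serpinh1, the chaperone of the folded helix, read 4.60, 4.78 and 4.54 on the controls and 6.10, 6.19 and 5.74 on the pre-miR-16 arrays, a change of 1.37 ± 0.15 (2.59-fold, adjusted p = 0.000833). The groups did not overlap in either gene. P4ha1 and P4ha2, catalytic subunits of the prolyl hydroxylase, rose by 1.38 ± 0.23 and 0.37 ± 0.09, and the lysyl hydroxylases Plod1 and Plod3 by 0.74 ± 0.10 and 0.32 ± 0.09. The calls of P4ha2 and Plod3 were the least firm, lost in 7 and 10 of 23 alternatives. Among these were slide as a block (0.41 and 0.33), median centring (0.28 and 0.23) and the fit without pre-miR-Control replicate 3 (0.34 and 0.29). P4ha2 was also not called without pre-miR-Control replicate 1 (0.37), and Plod3 not without pre-miR-Control replicate 2 (0.30) or replicate 1 (0.31) or 3 (0.35) of pre-miR-16.

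Chains that can share a trimer or network were compared within each array, as the level of one minus that of the other, so that array scaling cancels. Of 9 pairs, the arrays of the groups did not overlap in 6. For single genes the share without overlap was 61.4% of all tested, and the share over all gene pairs was not computed. With 3 arrays per group the smallest two-sided exact permutation p is 0.1, and adjusted over the 9 pairs the smallest was 0.15, so that no pair could pass a threshold of 0.05. The difference of Col11a1 minus Col11a2 was -5.59 ± 0.30 (SD, n = 3) on the controls and 0.01 ± 0.12 on the pre-miR-16 arrays, a shift of 5.60 (exact permutation p = 0.1). Col8a1 minus Col8a2 shifted by 3.08, from 3.54 ± 0.10 to 6.62 ± 0.30, and Col4a1 minus Col4a5 by 4.38, from 0.66 ± 0.31 to 5.04 ± 0.14 (exact permutation p = 0.1 each). The other pairs shifted by less than 0.5. Col4a1 minus Col4a2 shifted by -0.05, from 0.28 ± 0.05 to 0.22 ± 0.05 (exact permutation p = 0.5). Col1a1 minus Col1a2 shifted by -0.22, Col5a1 minus Col5a2 by -0.26 and Col5a1 minus Col5a3 by -0.27 (exact permutation p = 0.1 each).

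By the fitted changes, 15 of the 42 genes rose more than 8-fold, against 4.47% of all genes counted the same way. One of the 15, Col14a1, is known only to be at least 3.88-fold higher, which leaves 14. For 13 of these the probe was above background on all 6 arrays, and their changes ran from 3.86 to 4.87, a range whose lower end is limited by having picked them for size. Those 13 were Col1a1, Col1a2, Col3a1, Col5a1, Col5a2, Col5a3, Col11a1, Col4a1, Col4a2, Col8a1, Lox, Loxl1 and Loxl2. They are 13 of the 37 members above background on all 6 arrays. Of all 14589 such genes, 358 changed more than 8-fold in either direction, called or not. Pre-miR-16 replicate 2 was the highest array for all 13, and for 14 of the 15. The median change of the 15 was 3.99 within slide 1 and 4.49 within slide 2.

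Genes outside the set that serve the same pathway were counted by role. Of 17 genes for folding, modification and export of procollagen, 15 were tested, 12 rose and 0 fell (median 0.87). P3h1, a prolyl 3-hydroxylase, rose by 3.27 ± 0.20, Sec24d, a coat protein of the vesicles that carry procollagen, by 2.25 ± 0.19, and P3h3, another prolyl 3-hydroxylase, by 1.71 ± 0.16. Of 8 genes for the removal of the propeptides, 6 were tested, 4 rose and 1 fell (median 0.85). Adamts2, the protease that cuts the amino-terminal propeptide, rose by 3.58 ± 0.34, and Tll1, a relative of the carboxy-terminal protease, was at least 2.05-fold higher with 0 of 3 control arrays above background. Adamts3, a further amino-terminal protease, went the other way, from -4.15, -3.96 and -4.54 to -7.24, -7.38 and -6.99 with 0 of 3 pre-miR-16 arrays above background at that probe. Another Adamts3 probe was well above background on 1 or more pre-miR-16 arrays, so that no bound is given for this fall. Of 9 collagen receptors, 7 were tested, 5 rose and 0 fell (median 0.97). Mrc2, the receptor that takes collagen into cells, rose by 4.38 ± 0.18, Itga11, a collagen-binding integrin chain of fibroblasts, by 3.22 ± 0.14, and Ddr2, a collagen-sensing kinase, by 0.85 ± 0.12.

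Markers of other cell types moved on the same arrays. Of 12 fibroblast markers 11 rose and 0 fell (median 3.45), among them Pdgfrb (4.21 ± 0.15) and Vim (3.34 ± 0.11). Their summed level was 8.67 to 8.90 on the controls and 8.99 to 9.33 on the pre-miR-16 arrays, a sum carried by Dcn, picked out after its values were seen, which read 8.56 to 8.79 and 8.39 to 8.77 and did not pass the test. Sparc, Postn, Fn1 and Vim are also matrix or filament genes that tumour cells can express. The other markers of this list that rose were Pdgfra (0.85 ± 0.15), Pdgfrb, Thy1 (3.81 ± 0.22), Fap, Lum, Twist2 and Pdpn. Of 9 pericyte and smooth muscle markers 6 rose and 1 fell (median 2.81), with a summed level of 5.38 to 5.88 on the controls and 8.64 to 9.19 on the pre-miR-16 arrays. Notch3 was the one that fell (-0.58 ± 0.14), and Rgs5 (-1.74 ± 0.72) and Mcam (0.31 ± 0.16) were not called. Of 8 macrophage and leukocyte markers 6 rose and 0 fell (median 4.11), and their summed level went from 2.87 to 3.53 up to 7.48 to 7.90. That sum is carried by Lyz2, picked out after its values were seen, which read 1.95 to 3.155 on the controls and 7.40 to 7.805 on the pre-miR-16 arrays. Csf1r (-0.51 ± 0.26) and Cd3e (-0.08 ± 0.13) were not called. Under normexp the medians were 1.60 for fibroblast, 1.57 for pericyte and smooth muscle and 2.03 for macrophage and leukocyte markers. That of the fibrillar collagens was 3.965 under normexp. Well above background on all 6 arrays were 8 of the 12, 8 of the 9 and 4 of the 8 markers, so several rises start from dim control signals. The part of these cell types in the collagen rises was not tested.

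Luminal epithelial markers, which check the label of the cultures, were high in both groups, and basal ones were mixed. All 6 luminal markers fell (median -0.76), with a summed level of 9.78 to 9.99 on the controls and 9.01 to 9.09 on the pre-miR-16 arrays, but 2 of the 6 were called lower under spike-in scaling. Of 6 basal and myoepithelial markers 4 were tested, 1 rose and 2 fell (summed level 6.58 to 6.92 and 4.83 to 5.05), and Trp63 and Oxtr were not well above background on any array. The basal keratins Krt17 (-1.83 ± 0.14, adjusted p = 0.00019) and Krt14 (-1.95 ± 0.36, adjusted p = 0.0063) fell. Mylk rose by 3.435 ± 0.42, with 1 control array well above background. The basal keratin Krt5, picked out after its values were seen, had a mean level of -4.48 on the controls and -4.24 on the pre-miR-16 arrays and was not called. The endothelial markers Cdh5, Kdr and Tek were not well above background on any array either, and Vwf, the 1 tested of 7, changed by -0.05 ± 0.26. Of 4 adipocyte markers 1 was tested and 0 were called, with Lep below background on all arrays and summed levels of -3.59 to -2.48 and -3.58 to -2.63. Of 4 Schwann cell markers 3 were tested, 0 rose and Mbp fell (-0.63 ± 0.09), with summed levels of 5.14 to 5.30 and 4.57 to 4.59. The part of all these cell types in the collagen changes was not tested.

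**Figure D4:**
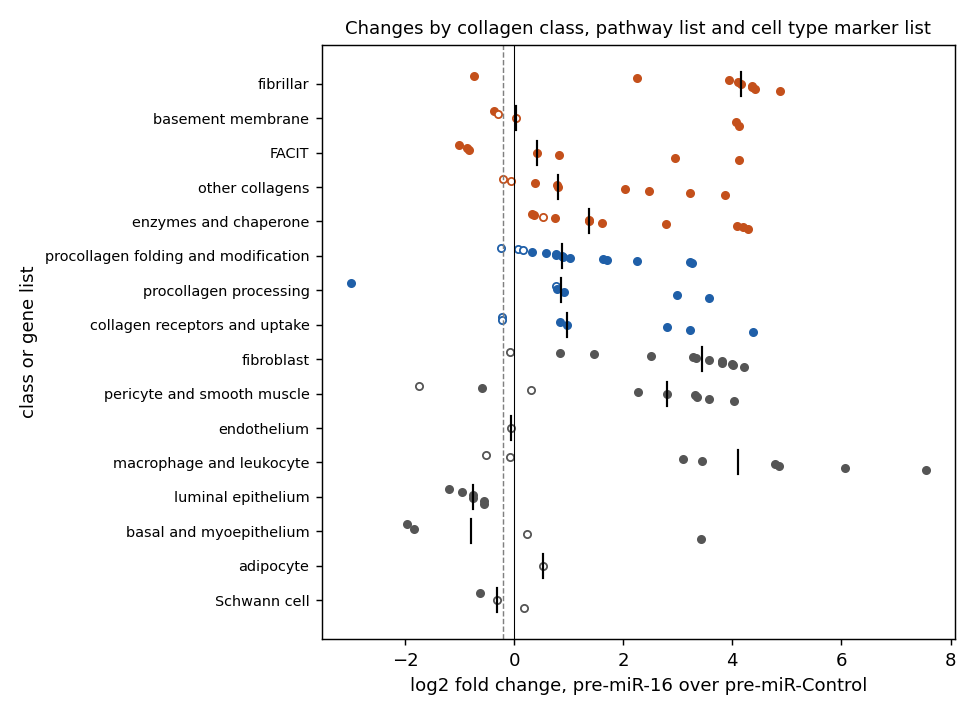
Log2 fold changes, pre-miR-16 over pre-miR-Control (horizontal axis), of the tested genes of each collagen class (orange), each collagen pathway list (blue) and each cell type marker list (grey). Each point is a gene, filled if called, black bars are list medians and the dashed line is the median of all genes (-0.196). The fibrillar class (median 4.16), the fibroblast markers (3.45) and the macrophage markers (4.11) lie to the right, and the luminal markers (-0.76) to the left. Under normexp, which is not drawn, these medians were 3.965, 1.60, 2.03 and -0.74.

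The 11 genes that were not tested were Col24a1, Col27a1, Col4a3, Col9a1, Col19a1, Col10a1, Col13a1, Col23a1, Col28a1, Col6a2 and P4ha3. Col24a1, Col4a3, Col9a1, Col19a1, Col10a1 and Col28a1, among them a fibrillar chain, a chain of the kidney filter and the collagen of growth plate cartilage (Col10a1), were not well above background on any array. P4ha3 and 1 probe of Col27a1 were well above background on 2 of the 3 pre-miR-16 arrays and on 0 control arrays, and Col6a2 on 1 pre-miR-16 array. Col13a1 was above background on 1 control array only. Col23a1 was above it on 1 control array at each of its 3 probes and on 1 pre-miR-16 array at 1 probe. Cert1, the transfer protein taken in by its old name, changed by -0.02 ± 0.16 and was not called (adjusted p = 0.917).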

How the data were processed

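The deposited scanner files hold spot intensity values that the authors made with Agilent Feature Extraction 9.5.3.1 (background subtracted, detrended within the array), per the file headers, which place probes on mm7. The deposited series matrix holds log2 values, and how the authors normalized them is not stated in the labels. In R (version 4.3.3, with packages limma, version 3.58.1, and data.table, version 1.17.8), control and outlier spots (74 to 113 per array) were left out, spots of a probe averaged on the log2 scale and each array's 75th percentile subtracted. Kept were 23827 probes for which, in at least 1 group, each of the 3 arrays had 0.5 or more of the probe's spots well above background, and the brightest kept probe stood for a gene. Probes were named through the GRCm38.p6 gene table by accession (22951 probes), else by symbol. Groups were compared with limma's lmFit and eBayes, Benjamini-Hochberg adjusted over 16182 genes. On simulated data with 16182 genes, 62% of changes of 1 and 86% of changes of 2 (log2) were recovered, with 7 false calls. The simulation had independent noise and changed a far smaller share of genes than was called here. Its rates therefore do not give the sensitivity of the comparison itself. The number of arrays limits the precision, and p-values speak for these samples only. The exon or untranslated region under each probe was not assigned. Genes named with values on every array were, per class, up to 5 called ones with the smallest p, all that fell and up to 3 not called, and from other lists up to 3; exceptions are stated. The members, gene lists and rules were chosen with earlier results of these data known.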

Additional observations from a re-analysis of the deposited data

How the results depend on the processing

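Of the 42 genes tested, 22 kept direction and side of the threshold in all 23 alternatives run. A further 4 (Col12a1, Col14a1, Col15a1 and Loxl3) did so in the 22 that gave them a value, as the filter on all 6 arrays leaves them out. The count of genes that rose stayed within 1.5 times of 31 throughout, and so did the count of each class except FACITs, of which 2 rose with the filter on all 6 arrays. The 5 falls were less firm: 0 were called under spike-in scaling and 3 without the filter on dim probes, at an adjusted p under 0.01, with the replicate number as a block (replicate block) and with the block in the order of the deposited value table, chosen after seeing the data. Leaving out single arrays gave 3 to 6 falls, 3 without pre-miR-Control replicate 1 or 2. Same-numbered replicates did not deviate together (correlations -0.0881, -0.025 and -0.00244), which gives no sign of pairing but cannot exclude it. With the replicate block 29 genes rose. Signs turned for Col2a1 with the deposited value table (-0.49) and without single arrays (-0.63 to 2.37), negative where the upstream probe stood for the gene; for Col4a6 (0.014), Col4a5 (0.085) and Col17a1 (0.19) under spike-in scaling; for Col4a4 under median centring (-0.051) and without single arrays (-0.034 to 0.113); for Col25a1 under quantile normalization (0.013), spike-in scaling (0.33) and without single arrays (-0.24 to 0.10); and for Cert1 under quantile normalization (0.094), spike-in scaling (0.36), normexp with quantile normalization (0.10), the deposited value table (0.048), array weights (0.10) and without single arrays (-0.14 to 0.12). Under normexp 8 of the 36 called genes had a change over 1.5 times smaller: Col14a1, Col12a1, Col15a1, Col6a3, Col6a1, Loxl3, Col9a2 and Col22a1.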

Other observations

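Some probes that did not enter the tests read differently from the tested probe of the same gene. The second probe of Col22a1, 70425 bases of genome nearer the 3′ end, was well above background on 0 control arrays and on 2 pre-miR-16 arrays, where it read -3.82, -5.12 and -3.72 against -5.46, -5.29 and -5.29 on the controls, opposite in direction to the tested Col22a1 probe. A probe of Col1a2 that lies 26846 bases of genome upstream of the tested one, and a Col3a1 probe 24342 bases upstream, both designed on cDNA clones, were not well above background on any array. The second Col14a1 probe, 177965 bases upstream, was likewise not well above background on any array, and it read -7.85, -7.54 and -7.29 on the pre-miR-16 arrays, where the tested Col14a1 probe read -3.45, -3.54 and -3.14.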
